A study of Mus musculus with 12 samples.

Results

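The mitochondrial respiratory chain was examined through 91 nuclear genes of the mouse, read by 142 probes, in spleen RNA of 12 mice. The genes were chosen by symbol, as those beginning with Nduf, Uqcr, Cox4 to Cox8 or Atp5 and the succinate dehydrogenase genes Sdha, Sdhb, Sdhc and Sdhd, out of 19057 genes and 45281 probes on the Illumina MouseWG-6 v2.0 BeadChip. By the complex they belong to, 34 were subunits of complex I, 4 of complex II, 7 of complex III, 16 of complex IV and 16 of complex V. The other 14 were assembly factors (Ndufaf and Sdhaf genes), the supercomplex factor Cox7a2l and the pseudogene Ndufs5-ps, whose probe may also bind Ndufs5 RNA. Male C57Bl/6J mice, purchased at 6 weeks of age and acclimatized for 3 weeks, were then fed for 8 weeks a control diet of low fat content, a high fat diet with 5% (w/w) corn oil (HFD-CO), or a high fat diet with 3% corn oil and 2% EPA and DHA oil (HFD-ED). The HFD-CO and HFD-ED diets were matched for macronutrients, and EPA and DHA are long-chain n-3 fatty acids found in fish. Per the paper, both high fat diets also held more coconut oil and sucrose than the control diet, and added cholesterol. The comparisons with control are therefore not of corn oil or of EPA and DHA alone. Each diet had 4 mice, 1 array per mouse, which the authors had picked from larger groups by body weight and plasma lipids. A protocol text in the sample labels speaks of skeletal muscle, whereas the tissue label and the titles name spleen. Of 11 striated muscle markers 1 had a mean of at least 7.5 on the log2 scale of the arrays, against 8 of 11 B-cell and T-cell markers.

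The respiratory chain passes electrons from NADH (complex I) and succinate (complex II) through coenzyme Q to complex III, from there over cytochrome c to complex IV and on to oxygen. Complexes I, III and IV pump protons across the inner mitochondrial membrane, and complex V, the ATP synthase, makes ATP as the protons flow back. Most subunits are made from nuclear genes, while a small core is encoded on mitochondrial DNA, so both genomes must supply their share. In the spleen, developing red cells and dividing cells hold many mitochondria, and mature red cells hold none.

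Levels are given in log2 units, normalized between arrays by the authors, and differences are of diet means on that scale. Most probes lay near the lower end of the scale, where differences are compressed, as 75.2% of all probes had a mean under 7.5. Respiratory chain genes were brighter than that, with 74 of 91 at a mean of at least 7.5, against 36.8% of all genes. The other 17, among them Sdha, Ndufs1, Uqcrfs1, Ndufb4 and Ndufb11, were below that mean even on their brightest probe. A gene was called changed only at a Benjamini-Hochberg adjusted p under 0.05 in the limma fit of all probes. HFD-ED replicate 3 had the highest erythroid signal of the 12 mice, and HFD-CO replicate 4 carried pancreatic enzyme RNA. Values without one of these mice are given beside some of the results that moved with it, and other results moved too.

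No respiratory chain gene passed the test in any diet comparison. Over all probes the share called was 0.0% in both comparisons with control and 0.00221% (1 probe) for HFD-ED against HFD-CO. At an unadjusted p under 0.05 there were 4620 probes in HFD-ED against control, 2072 in HFD-CO against control and 4211 in HFD-ED against HFD-CO. The smallest limma adjusted p of a member was 0.252 for HFD-ED against control, 0.385 for HFD-ED against HFD-CO and 1.0 for HFD-CO against control. The differences were small and leaned towards higher levels in HFD-ED, though not for every member. In HFD-ED against control, 66 of 91 members (72.5%) had the higher mean in HFD-ED, against 45.9% of all genes, with a median difference of 0.082 log2 units against -0.0036. Among genes with a mean of at least 7.5, 57 of 74 members (77.0%) were higher, against 41.0% of 7014 genes, with medians of 0.10 and -0.032.

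The comparison of HFD-ED with HFD-CO, which shares the HFD-ED mice with the former, gave 71 of 91 members higher in HFD-ED (78.0%, against 47.0% of all genes), with a median of 0.064 log2 units against -0.0026. For HFD-CO against control the sign was mixed, with 48 of 91 members higher (52.7%, against 47.8% of all genes) and a median of 0.0032. Without HFD-ED replicate 3, 69 members were higher than control, with a lower median of 0.058, and 62 were higher than HFD-CO. Without HFD-CO replicate 4, 61 were higher in HFD-ED than in HFD-CO, with a median of 0.030, and 58 were higher in HFD-CO than in control, with a median of 0.025. The members share RNA samples and cells, so these counts do not come from 91 independent observations.

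At an unadjusted limma p under 0.05, 20 of 91 members (22.0%) were higher in HFD-ED than in control, against 5.69% of all genes, and 1 (Cox6a2) was lower, against 7.55%. Among genes with a mean of at least 7.5 these 20 made 27.0% of the members, against 10.3%. In HFD-ED against HFD-CO, 16 members (17.6%) were higher, against 6.07% of all genes, and 1 was lower, against 5.82%; for the brighter genes the shares were 21.6% and 10.9%. In HFD-CO against control, 2 members were higher (all genes 2.12%) and 2 lower (all genes 2.88%), a share near that of all genes, with 4 higher without HFD-CO replicate 4. The count of 20 was 9 without HFD-ED replicate 3, 13 without HFD-ED replicate 2, 13 without control replicate 1, 11 without control replicate 2 and 11 with a variance trend in the fit. The count of 16 was 4 without HFD-ED replicate 3, 6 without HFD-CO replicate 4, 9 without either of HFD-CO replicates 1 and 2, 10 without either of HFD-ED replicates 2 and 4, and 9 with a variance trend.

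Few members separated the diets mouse by mouse. All 4 HFD-ED mice lay above all 4 control mice for 4 of 74 brighter members (Ndufc1, Ndufa12, Ndufb9 and Sdhaf3; 5.41%, against 2.61% of the 7014 genes). They lay above all 4 HFD-CO mice for 2 (Ndufv2 and Uqcrc1; 2.7%, against 2.65%), which is near the share of all genes. In HFD-CO against control, all HFD-CO mice lay above all control mice for 1 brighter member (Sdhaf3; 1.35%, against 1.23% of the genes) and below them for 1 (Cox6a2; 1.35%, against 2.31%). The HFD-ED mice lay apart from both other diets, above or below, for 0 of the 74 brighter members, against 2.64% of the genes.

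**Figure D1:**
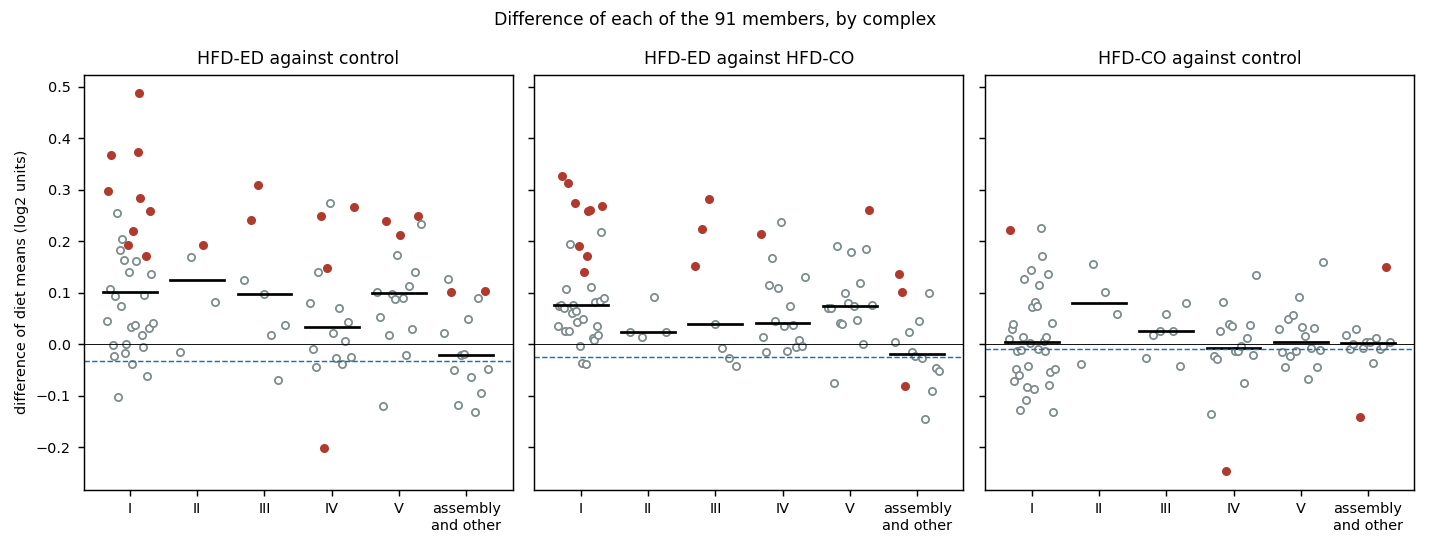
Difference between diet means (vertical axis, log2 units) of each of the 91 members, by complex (horizontal axis), in the 3 diet comparisons. Each circle is 1 gene, filled red at an unadjusted limma p under 0.05, the black bar is the median of the complex, and the dashed blue line is the median of the 7014 genes with a mean of at least 7.5. In HFD-ED against control the medians of complexes I to V lie above the dashed line and 20 red circles lie above 0, while in HFD-CO against control the circles are spread on both sides of 0.

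For each mouse, the mean deviation of a complex from its 12-mouse mean was taken over its genes. Complex I, which holds the largest number of nuclear subunits, was at -0.035, -0.10, -0.023 and -0.025 in the control mice, -0.021, -0.0016, 0.00054 and -0.10 in the HFD-CO mice and -0.013, 0.13, 0.13 and 0.059 in the HFD-ED mice. HFD-ED replicates 2, 3 and 4 were the highest 3 of the 12 mice, and HFD-ED replicate 1 was within the range of the other diets. The mean difference of HFD-ED from control was 0.12 log2 units for complex I, with 27 of 34 genes higher, against a spread (SD) between mice of a diet of 0.054.

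Complex III showed the widest spread. Its values were -0.040, -0.11, -0.014 and -0.0047 in the control mice, 0.0051, -0.045, 0.0065 and -0.059 in the HFD-CO mice and -0.0007, -0.018, 0.24 and 0.038 in the HFD-ED mice. HFD-ED replicate 3 stood alone, and the difference from control was 0.11 with and 0.049 without this mouse, against an SD of 0.078. Complex V differed from control by 0.11 (14 of 16 genes higher, SD 0.057), complex II by 0.11 (3 of 4 higher, SD 0.068) and complex IV by 0.059 (10 of 16 higher, SD 0.045). A mean of at least 7.5 was reached by 9 of 16 complex IV genes and 3 of 4 complex II genes, against 31 of 34 in complex I. The dimmer genes, whose differences are compressed, enter these means. With dim probes left out, complex II differed from control by 0.15, and complex IV from HFD-CO by 0.097. Without HFD-ED replicate 3, the difference from control was 0.038 for complex IV and 0.074 for complex V. For the assembly factors and other members the difference from control, over all mice, was -0.0041, with 6 of 14 genes higher.

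Against HFD-CO, the mean differences of HFD-ED were 0.11 for complex I, 0.038 for complex II, 0.089 for complex III, 0.072 for complex IV and 0.091 for complex V. Complex II turned to -0.0054 without HFD-CO replicate 4, and was 0.067 without HFD-CO replicate 1. Without HFD-ED replicate 3, complex III was at 0.030 and complex V at 0.059. Within complex I, the 28 accessory subunits had a mean difference of 0.14 from control and the 6 core subunits, which carry the electron path, 0.063. Within complex V, the 11 genes of the peripheral stalk and the membrane part had 0.13 and the 5 genes of the catalytic head with its central stalk (Atp5a1, Atp5b, Atp5c1, Atp5d and Atp5e) 0.058. The difference between these subgroups was not tested.

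**Figure D2:**
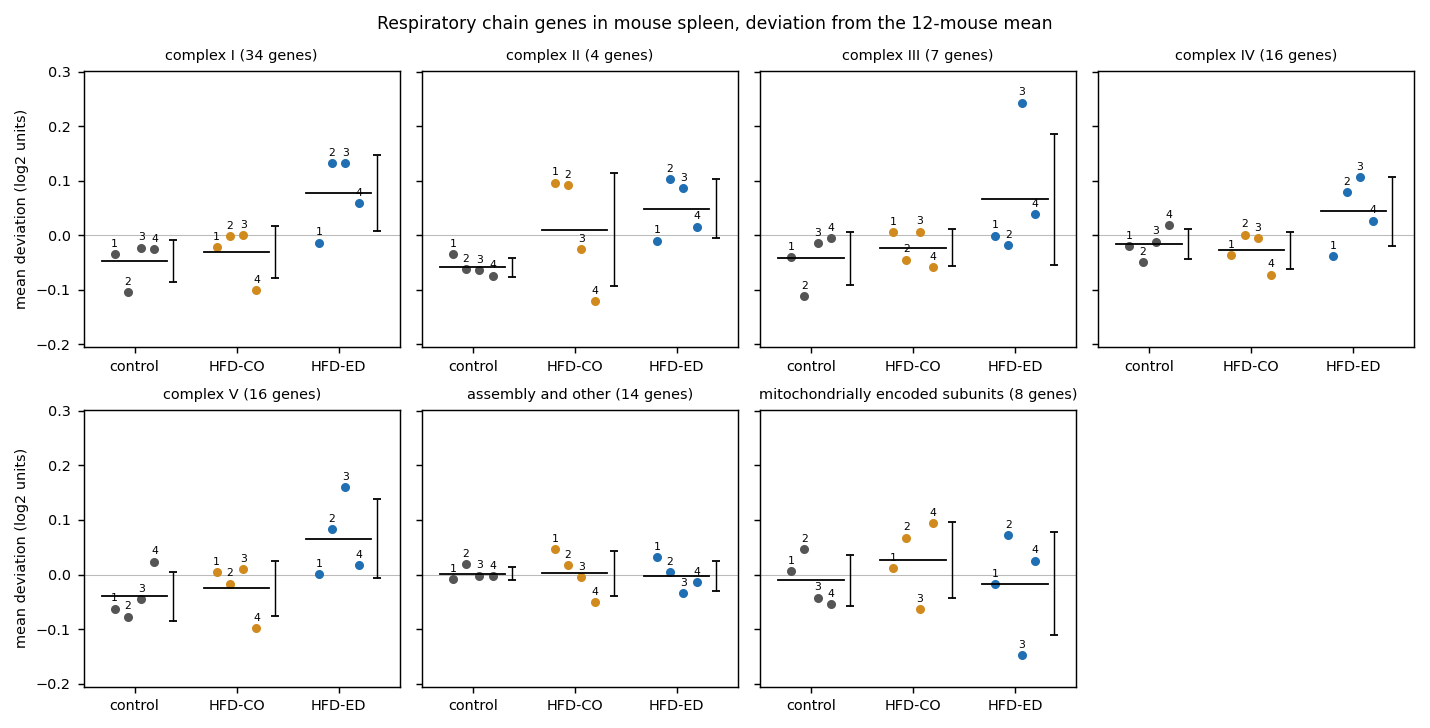
Mean deviation of each mouse from the 12-mouse mean (vertical axis, log2 units) over the genes of complexes I to V, the assembly factors and other members, and the subunits encoded on mitochondrial DNA, by diet. Numbered points are mice (replicates 1 to 4), horizontal bars are diet means and the error bars are 1 SD. HFD-ED replicates 2 and 3 lie above all control mice in complexes I, II, IV and V, HFD-ED replicate 1 lies among the other diets, and HFD-ED replicate 3 is the lowest mouse for the mitochondrially encoded subunits.

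Single mice differed in how many of the 74 brighter members they led. HFD-ED replicate 3 had the highest level of the 12 mice for 32 members (43.2%), against 20.7% of the 7014 genes, and HFD-ED replicate 2 for 12 (16.2%, against 7.04%). HFD-CO replicate 4 had the lowest level for 19 members (25.7%, against 9.05% of the genes), and control replicate 2 for 13 (17.6%, against 6.0%). HFD-ED replicate 3 was also the lowest mouse for 8 members (10.8%) and for 27.0% of the genes, so it was extreme in both directions. Relative to control, HFD-ED replicates 1, 2, 3 and 4 exceeded every control mouse for 23.0%, 47.3%, 59.5% and 39.2% of the members, against 18.2%, 24.6%, 29.4% and 23.9% of the genes. HFD-ED replicate 1 was thus near HFD-CO replicates 1, 2 and 3, at 25.7%, 23.0% and 29.7%, against 18.7%, 20.5% and 18.6% of the genes. HFD-CO replicate 4 was lower, at 6.76%, against 19.6% of the genes.

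Promoters of these genes are known for sites of NRF-1, of GABP (an ETS factor) and of YY1, which are general regulators of respiratory genes. RefSeq promoters of the mouse build GRCm38.p6, from 250 bases before to 50 after the start of a gene, were matched for 76 of 91 members and searched on both strands for 3 exact words. The NRF-1 core GCGCATGC was found for 12 of 76 members (15.8%), against 3.05% of 27025 genes in the table and 4.28% of 14872 protein-coding genes on the array. The YY1 word AAGATGGC was found for 11 members (14.5%), against 3.19% and 3.83%. The ETS word CCGGAAGT was found for 4 members (5.26%), against 4.31% and 6.19%. The NRF-1 and YY1 words were thus more frequent among members than in either background, and the share of the ETS word lay between those of the backgrounds. A word overlaps its own reverse complement in the longer form GCGCATGCGC, which was counted once. A match describes letters and shows no binding, and a missing match says only that these letters are not in the window.

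The 7 promoters of members described below that hold a word within 170 bases before to 30 bases after the start are printed 5′ to 3′ on the strand of the gene, with the words in capitals, because they show where the words lie. They span chr15:102671018-102671217 on the minus strand for Atp5g2, chr16:84834947-84835146 on the minus strand for Atp5j, chr5:115348929-115349128 on the minus strand for Cox6a1, chr3:51408926-51409125 on the minus strand for Ndufc1, chr4:140961101-140961300 on the plus strand for Sdhb, chr10:80406792-80406991 on the minus strand for Uqcr11 and chr4:116075041-116075240 on the minus strand for Uqcrh. Atp5g2, Cox6a1, Sdhb and Uqcr11 hold the NRF-1 core, Atp5j and Ndufc1 the YY1 word, and Uqcr11 and Uqcrh the ETS word. The NRF-1 core of Sdhb and Uqcr11 and the ETS word of Uqcrh are printed as their reverse complement.
Atp5g2: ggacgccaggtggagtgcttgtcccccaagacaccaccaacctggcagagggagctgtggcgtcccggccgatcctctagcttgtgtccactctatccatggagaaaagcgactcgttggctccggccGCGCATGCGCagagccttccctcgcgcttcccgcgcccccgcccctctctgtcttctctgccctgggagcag
Atp5j: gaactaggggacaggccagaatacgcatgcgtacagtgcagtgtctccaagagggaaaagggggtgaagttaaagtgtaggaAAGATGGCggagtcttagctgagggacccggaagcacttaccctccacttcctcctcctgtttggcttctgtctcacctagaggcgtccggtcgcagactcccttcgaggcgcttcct
Cox6a1: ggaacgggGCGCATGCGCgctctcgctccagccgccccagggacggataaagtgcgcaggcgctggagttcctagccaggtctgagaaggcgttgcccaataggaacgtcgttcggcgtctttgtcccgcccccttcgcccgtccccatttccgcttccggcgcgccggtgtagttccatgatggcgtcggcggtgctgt
Ndufc1: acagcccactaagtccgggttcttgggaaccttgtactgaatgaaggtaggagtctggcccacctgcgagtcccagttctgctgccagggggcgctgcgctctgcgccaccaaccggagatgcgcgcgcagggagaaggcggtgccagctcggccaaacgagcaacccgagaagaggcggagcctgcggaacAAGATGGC
Sdhb: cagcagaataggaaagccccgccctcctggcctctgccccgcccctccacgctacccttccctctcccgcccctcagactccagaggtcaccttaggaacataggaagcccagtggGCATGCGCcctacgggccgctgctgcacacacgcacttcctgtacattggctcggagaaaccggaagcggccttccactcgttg
Uqcr11: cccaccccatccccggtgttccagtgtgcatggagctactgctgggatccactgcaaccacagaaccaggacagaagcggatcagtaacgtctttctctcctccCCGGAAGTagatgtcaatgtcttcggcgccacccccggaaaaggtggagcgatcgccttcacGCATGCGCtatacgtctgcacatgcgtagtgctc
Uqcrh: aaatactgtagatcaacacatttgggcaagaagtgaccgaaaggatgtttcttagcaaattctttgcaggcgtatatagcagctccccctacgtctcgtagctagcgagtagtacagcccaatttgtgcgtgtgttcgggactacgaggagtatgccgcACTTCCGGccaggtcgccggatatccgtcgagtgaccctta
The NRF-1 core begins 42 bases before the start in Atp5g2, 54 in Sdhb, 4 in Uqcr11 and 162 in Cox6a1, so it has no fixed place. In Ndufc1 the YY1 word begins at base 23 counted from the RefSeq start, and in Atp5j 88 bases before it.

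Complex I held the members with the smallest p in HFD-ED against control. Ndufc1, an accessory subunit of the membrane arm, was at 10.26, 10.27, 10.54 and 10.55 in the control mice, 10.51, 10.82, 10.61 and 10.59 in the HFD-CO mice and 10.64, 11.05, 11.07 and 10.81 in the HFD-ED mice. All 4 HFD-ED mice lay above all control mice, and the HFD-CO mice lay between, overlapping with both. Its mean was 1.40 times the control mean, a difference of 0.49 log2 units (SE 0.11, 95% interval 0.24 to 0.73, limma adjusted p 0.252). It differed from HFD-CO by 0.26 log2 units (SE 0.11, 95% interval 0.02 to 0.50, limma adjusted p 0.511), and HFD-CO from control by 0.23 log2 units (SE 0.11, 95% interval -0.02 to 0.47, limma adjusted p 1.0). A dimmer probe of Ndufc1 had a difference from control of 0.19, so the 2 probes differ in size but not in sign.

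Ndufa12, an accessory subunit of the peripheral arm, was at 9.47, 9.45, 9.42 and 9.62 in the control mice, 9.51, 9.50, 9.75 and 9.36 in the HFD-CO mice and 9.91, 9.87, 10.004 and 9.65 in the HFD-ED mice. The HFD-ED mice were all above the control mice, while HFD-CO replicate 3 reached into their range. Ndufa12 differed from control by 0.37 log2 units (SE 0.089, 95% interval 0.17 to 0.56, limma adjusted p 0.26), or 1.29-fold, and from HFD-CO by 0.33 log2 units (SE 0.089, 95% interval 0.13 to 0.52, limma adjusted p 0.385). Ndufb6, another membrane arm subunit, was at 10.33, 10.40, 10.33 and 10.57 in the control mice, 10.56, 10.46, 10.49 and 10.44 in the HFD-CO mice and 10.65, 10.53, 10.73 and 10.60 in the HFD-ED mice. Its HFD-ED mice overlapped with control replicate 4 and HFD-CO replicate 1, and it differed from control by 0.22 log2 units (SE 0.057, 95% interval 0.09 to 0.35, limma adjusted p 0.297).

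Ndufv2, a core subunit with an iron-sulfur cluster, was at 11.56, 11.19, 11.36 and 11.23 in the control mice, 11.33, 11.02, 11.26 and 11.19 in the HFD-CO mice and 11.35, 11.52, 11.42 and 11.59 in the HFD-ED mice. The HFD-ED mice lay above the HFD-CO mice without overlap, at 0.27 log2 units (SE 0.09, 95% interval 0.07 to 0.47, limma adjusted p 0.459), but not above control, at 0.14 log2 units (SE 0.09, 95% interval -0.06 to 0.34, limma adjusted p 0.664). Control replicate 1 was almost as high as the highest HFD-ED mouse. Ndufb9, a subunit outside the rule for named genes that is named here because its HFD-ED mice did not overlap with control, was at 7.95, 7.93, 7.72 and 7.86 in the control mice, 8.22, 7.85, 7.95 and 7.91 in the HFD-CO mice and 8.20, 8.39, 8.34 and 8.02 in the HFD-ED mice. Its difference from control was 0.37 log2 units (SE 0.097, 95% interval 0.16 to 0.59, limma adjusted p 0.297).

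Ndufa13, also known as GRIM-19 and the brightest complex I probe, was at 12.70, 12.70, 12.66 and 12.62 in the control mice, 12.70, 12.55, 12.55 and 12.60 in the HFD-CO mice and 12.69, 12.76, 12.58 and 12.66 in the HFD-ED mice. The diets overlapped throughout, and the difference of HFD-ED from control was -0.0016 log2 units (SE 0.041, 95% interval -0.09 to 0.09, limma adjusted p 1.0), or 0.029 without HFD-ED replicate 3. Ndufab1, the mitochondrial acyl carrier protein, and Ndufa7 had, with Ndufc1, the widest ranges over the 12 mice. Ndufab1 was at 11.08, 10.83, 11 and 11.09 in the control mice, 10.90, 10.94, 11.04 and 10.68 in the HFD-CO mice and 11.05, 10.95, 11.50 and 11.15 in the HFD-ED mice, with HFD-ED replicate 3 far above the others. It differed by 0.16 log2 units (SE 0.12, 95% interval -0.09 to 0.42, limma adjusted p 0.693) from control and by 0.27 log2 units (SE 0.12, 95% interval 0.02 to 0.53, limma adjusted p 0.516) from HFD-CO. Without HFD-ED replicate 3 these were 0.052 and 0.16. Its dimmer probes, with means of 9.94 and 9.16, had larger differences from control, at 0.50 and 0.28. Ndufa7 was at 10.84, 10.41, 10.98 and 10.86 in the control mice, 10.80, 10.78, 10.75 and 10.72 in the HFD-CO mice and 10.84, 11.22, 11.01 and 10.76 in the HFD-ED mice, with the lowest value in control replicate 2 and the highest in HFD-ED replicate 2. Its difference from control was 0.18 log2 units (SE 0.12, 95% interval -0.08 to 0.45, limma adjusted p 0.666), or 0.062 without control replicate 2 and 0.10 without HFD-ED replicate 2.

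Complex II is succinate dehydrogenase, which also serves the citric acid cycle and is encoded by nuclear genes alone. Sdhc, a membrane anchor, was at 9.49, 9.52, 9.69 and 9.61 in the control mice, 9.77, 9.73, 9.57 and 9.64 in the HFD-CO mice and 9.65, 9.78, 9.84 and 9.81 in the HFD-ED mice. HFD-ED replicates 2, 3 and 4 were above every other mouse, and HFD-ED replicate 1 lay within the control range. Sdhc differed from control by 0.19 log2 units (SE 0.056, 95% interval 0.07 to 0.32, limma adjusted p 0.328). Sdhb, the iron-sulfur subunit, was at 9.52, 9.51, 9.51 and 9.35 in the control mice, 9.70, 9.84, 9.66 and 9.31 in the HFD-CO mice and 9.59, 9.75, 9.72 and 9.50 in the HFD-ED mice, and was higher in mean in both high fat diets than in control, by 0.17 log2 units (SE 0.1, 95% interval -0.05 to 0.39, limma adjusted p 0.616) in HFD-ED and 0.16 log2 units (SE 0.1, 95% interval -0.06 to 0.38, limma adjusted p 1.0) in HFD-CO. HFD-CO replicate 4 and control replicate 4 were the lowest mice, and the difference of HFD-CO from control was 0.26 without the former and 0.084 without HFD-CO replicate 2, the highest. Sdhd, the other anchor, was at 8.12, 8.03, 7.79 and 8.04 in the control mice, 8.23, 8.10, 7.97 and 7.92 in the HFD-CO mice and 7.98, 8.17, 8.13 and 8.02 in the HFD-ED mice, with overlap between the diets and a difference of 0.08 log2 units (SE 0.082, 95% interval -0.10 to 0.26, limma adjusted p 0.809), or 0.015 without control replicate 3. The probe of Sdha, the flavoprotein that oxidizes succinate, read between 7.01 and 7.12 in the 12 mice, at the lower end of the scale, and gives no information on the gene.

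In complex III, Uqcrc1, a core protein of the matrix side, was at 9.69, 9.70, 9.95 and 10.04 in the control mice, 9.93, 9.77, 9.95 and 9.84 in the HFD-CO mice and 10.04, 10.08, 10.40 and 10.10 in the HFD-ED mice. The HFD-ED mice lay above all HFD-CO mice and overlapped with control replicate 4. Uqcrc1 differed by 0.31 log2 units (SE 0.095, 95% interval 0.10 to 0.52, limma adjusted p 0.344) from control (1.24-fold) and by 0.28 log2 units (SE 0.095, 95% interval 0.07 to 0.49, limma adjusted p 0.462) from HFD-CO. Uqcr11, a small subunit, was at 11.16, 10.97, 11.28 and 11.27 in the control mice, 11.24, 11.10, 11.32 and 11.09 in the HFD-CO mice and 11.37, 11.18, 11.64 and 11.45 in the HFD-ED mice, led by HFD-ED replicate 3, with a difference from control of 0.24 log2 units (SE 0.099, 95% interval 0.02 to 0.46, limma adjusted p 0.445). Uqcr10, another small subunit, was at 12.40, 12.29, 12.41 and 12.38 in the control mice, 12.29, 12.35, 12.44 and 12.29 in the HFD-CO mice and 12.43, 12.37, 12.69 and 12.48 in the HFD-ED mice, again highest in HFD-ED replicate 3. It differed by 0.12 log2 units (SE 0.063, 95% interval -0.02 to 0.26, limma adjusted p 0.544) from control and by 0.15 log2 units (SE 0.063, 95% interval 0.01 to 0.29, limma adjusted p 0.508) from HFD-CO, or 0.058 and 0.086 without that mouse. Uqcrh, the hinge protein that assists the transfer to cytochrome c and the brightest complex III probe, did not share this order. It was at 12.85, 12.64, 12.65 and 12.63 in the control mice, 12.67, 12.71, 12.53 and 12.70 in the HFD-CO mice and 12.47, 12.57, 12.88 and 12.58 in the HFD-ED mice, where control replicate 1 was nearly as high as HFD-ED replicate 3 and the other HFD-ED mice were among the lowest. Its difference from control was -0.07 log2 units (SE 0.084, 95% interval -0.25 to 0.12, limma adjusted p 0.856), or -0.15 without HFD-ED replicate 3 and -0.016 without control replicate 1.

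Complex IV, cytochrome c oxidase, has subunits with tissue forms. Cox6a1, the form of most tissues, was at 11.84, 11.95, 12.08 and 12.06 in the control mice, 12.01, 12.11, 12.16 and 11.96 in the HFD-CO mice and 12.04, 12.35, 12.45 and 12.08 in the HFD-ED mice. HFD-ED replicates 2 and 3 were the highest, while replicates 1 and 4 were close to control replicate 3. It differed from control by 0.25 log2 units (SE 0.092, 95% interval 0.04 to 0.45, limma adjusted p 0.41), and its other probe, with a mean of 11.5, gave 0.34. Cox6a2, the form of heart and skeletal muscle, had the opposite sign and was at 8.01, 7.83, 7.71 and 7.74 in the control mice, 7.55, 7.63, 7.55 and 7.57 in the HFD-CO mice and 7.70, 7.74, 7.53 and 7.53 in the HFD-ED mice. All HFD-CO mice and HFD-ED replicates 1, 3 and 4 lay below every control mouse, close to the lower end of the scale. Cox6a2 differed by -0.20 log2 units (SE 0.067, 95% interval -0.35 to -0.05, limma adjusted p 0.371) in HFD-ED and -0.25 log2 units (SE 0.067, 95% interval -0.39 to -0.10, limma adjusted p 1.0) in HFD-CO against control, and by 0.04 log2 units (SE 0.067, 95% interval -0.10 to 0.19, limma adjusted p 0.899) between the high fat diets, which ranged from 0.0066 to 0.076 with single mice left out. It was the member with the lowest difference in both comparisons with control.

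**Figure D3:**
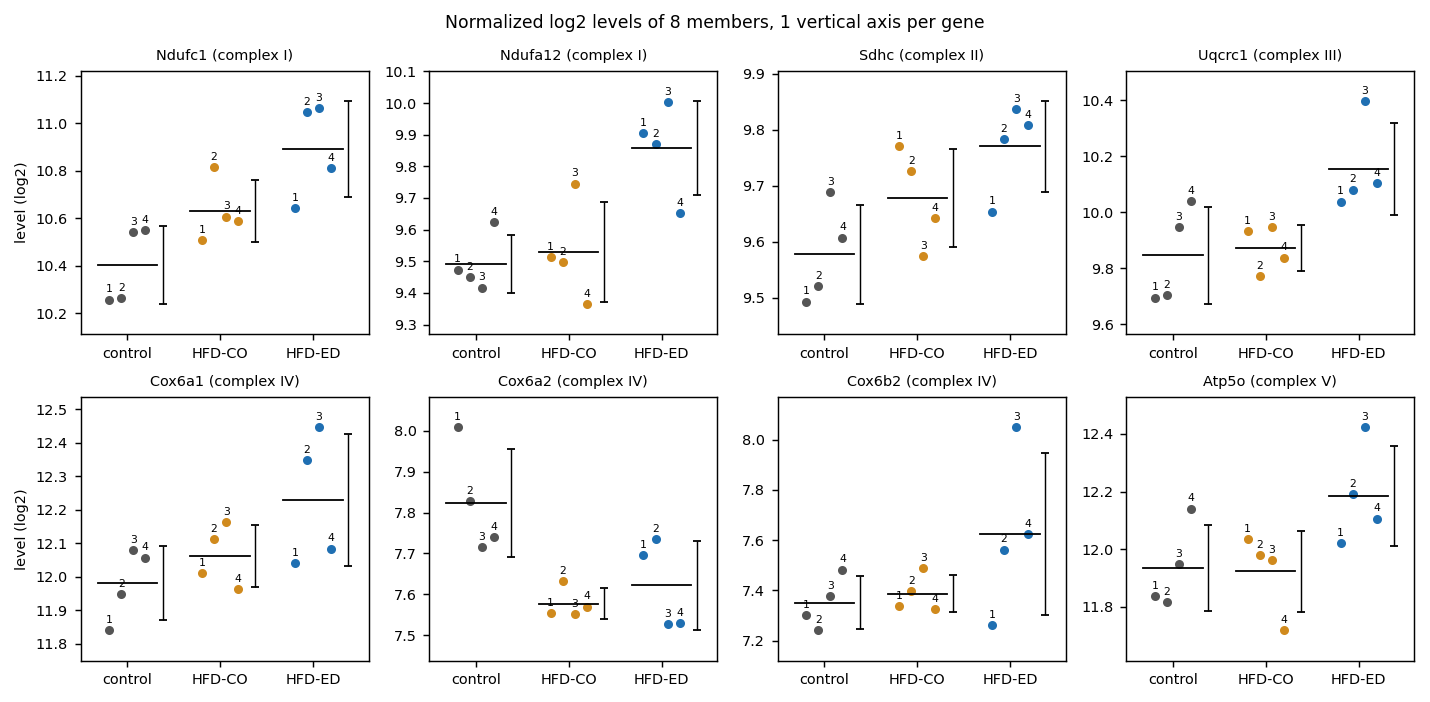
Normalized level (vertical axis, log2, with its own range in each panel) of 8 members in each mouse by diet: Ndufc1 and Ndufa12 (complex I), Sdhc (complex II), Uqcrc1 (complex III), Cox6a1, Cox6a2 and Cox6b2 (complex IV) and Atp5o (complex V). Numbered points are mice, horizontal bars are diet means and the error bars are 1 SD. All HFD-ED mice lie above all control mice for Ndufc1 and Ndufa12, Cox6a2 is highest in the control mice, and Cox6b2 reaches 8.05 in HFD-ED replicate 3.

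Cox6b1, the form of Cox6b found in most tissues, was at 12.02, 11.94, 11.98 and 12.11 in the control mice, 12.06, 12.03, 12.20 and 11.92 in the HFD-CO mice and 12.07, 12.24, 12.18 and 12.14 in the HFD-ED mice, with a difference from control of 0.15 log2 units (SE 0.059, 95% interval 0.02 to 0.28, limma adjusted p 0.434). Cox6b2, its testis form, was near the lower end in most mice, with HFD-ED replicates 2, 3 and 4 above every other mouse. It was at 7.30, 7.24, 7.38 and 7.48 in the control mice, 7.34, 7.40, 7.49 and 7.32 in the HFD-CO mice and 7.26, 7.56, 8.05 and 7.62 in the HFD-ED mice, a difference from control of 0.27 log2 units (SE 0.13, 95% interval -0.02 to 0.56, limma adjusted p 0.513), or 0.13 without HFD-ED replicate 3. The other probe of Cox6b2, with a mean of 7.09 at the lower end, had -0.048. Ndufa4, a complex IV subunit that carries an older complex I name, was at 11.62, 11.83, 11.96 and 12.05 in the control mice, 11.93, 12.04, 12.10 and 11.92 in the HFD-CO mice and 12.03, 12.19, 12.34 and 11.96 in the HFD-ED mice and differed from control by 0.27 log2 units (SE 0.1, 95% interval 0.04 to 0.49, limma adjusted p 0.414). HFD-ED replicates 2 and 3 lay above every control mouse, and replicates 1 and 4 did not.

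Cox4i1, the common form of Cox4 and the brightest complex IV probe, was at 12.93, 12.58, 12.70 and 12.64 in the control mice, 12.56, 12.70, 12.41 and 12.64 in the HFD-CO mice and 12.61, 12.91, 12.85 and 12.79 in the HFD-ED mice. Control replicate 1 had the highest value, and HFD-ED replicates 2, 3 and 4 were above every HFD-CO mouse. It differed by 0.08 log2 units (SE 0.088, 95% interval -0.12 to 0.27, limma adjusted p 0.834) from control (0.15 without control replicate 1) and by 0.21 log2 units (SE 0.088, 95% interval 0.02 to 0.41, limma adjusted p 0.503) from HFD-CO. Cox7a2, the common form of Cox7a, was at 7.90, 7.88, 7.98 and 7.83 in the control mice, 7.80, 7.86, 8.02 and 7.89 in the HFD-CO mice and 7.82, 8.12, 7.96 and 7.98 in the HFD-ED mice, with overlap between the diets and a difference of 0.07 log2 units (SE 0.063, 95% interval -0.07 to 0.21, limma adjusted p 0.773), or 0.021 without HFD-ED replicate 2. The probe of Cox7b, a small subunit, was dim, at 7.41, 7.47, 7.35 and 7.45 in the control mice, 7.30, 7.39, 7.37 and 7.33 in the HFD-CO mice and 7.35, 7.33, 7.39 and 7.46 in the HFD-ED mice, with a difference from control of -0.04 log2 units (SE 0.035, 95% interval -0.12 to 0.04, limma adjusted p 0.788) in this compressed range. The lung form Cox4i2, the heart and muscle forms Cox7a1 and Cox8b, Cox7b2 and the testis form Cox8c read between 7.0 and 7.29 in all mice, at the lower end of the scale in every diet.

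In complex V, Atp5o, the stalk protein that confers oligomycin sensitivity, was at 11.84, 11.82, 11.95 and 12.14 in the control mice, 12.03, 11.98, 11.96 and 11.72 in the HFD-CO mice and 12.02, 12.19, 12.42 and 12.11 in the HFD-ED mice. HFD-ED replicate 3 was the highest mouse and HFD-CO replicate 4 the lowest. Atp5o differed by 0.25 log2 units (SE 0.1, 95% interval 0.03 to 0.47, limma adjusted p 0.439) from control and by 0.26 log2 units (SE 0.1, 95% interval 0.04 to 0.48, limma adjusted p 0.488) from HFD-CO. Atp5d, the delta subunit of the central stalk, was at 10.25, 10.01, 10.18 and 10.28 in the control mice, 10.34, 10.36, 10.19 and 10.01 in the HFD-CO mice and 10.41, 10.41, 10.62 and 10.23 in the HFD-ED mice. HFD-ED replicates 1, 2 and 3 lay above every control and HFD-CO mouse, and the difference from control was 0.24 log2 units (SE 0.097, 95% interval 0.03 to 0.45, limma adjusted p 0.44). Atp5j, coupling factor 6 of the peripheral stalk, was at 11.57, 11.64, 11.60 and 11.89 in the control mice, 11.72, 11.82, 11.69 and 11.59 in the HFD-CO mice and 11.76, 11.81, 12.15 and 11.82 in the HFD-ED mice, with HFD-ED replicate 3 above all others. Its difference was 0.21 log2 units (SE 0.093, 95% interval 0.0057 to 0.42, limma adjusted p 0.476), or 0.12 without this mouse, while a dimmer probe of the gene, with a mean of 7.75, had -0.088. Atp5j, Ndufb10 and Ndufs4 were the 3 of 21 genes with several brighter probes whose probes differed in sign in HFD-ED against control.

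Atp5b, the catalytic beta subunit and the brightest complex V probe, was at 13.22, 13.32, 13.67 and 13.40 in the control mice, 13.36, 13.53, 13.47 and 13.19 in the HFD-CO mice and 13.30, 13.36, 13.60 and 13.57 in the HFD-ED mice. The diets overlapped, and the difference was 0.05 log2 units (SE 0.11, 95% interval -0.18 to 0.29, limma adjusted p 0.925), or 0.0046 without HFD-ED replicate 3 and 0.14 without control replicate 3. Atp5g2 and Atp5g3 encode the same c subunit of the membrane rotor with different import signals. Atp5g2 was at 9.59, 9.45, 9.82 and 9.72 in the control mice, 9.79, 9.51, 9.69 and 9.81 in the HFD-CO mice and 9.85, 10.06, 9.36 and 9.69 in the HFD-ED mice, with both the highest and the lowest of the 12 values among HFD-ED mice and a difference from control of 0.10 log2 units (SE 0.13, 95% interval -0.20 to 0.39, limma adjusted p 0.88), or 0.22 without HFD-ED replicate 3 and -0.0075 without HFD-ED replicate 2. Atp5g3 was at 13.19, 13.13, 13.21 and 13.21 in the control mice, 13.09, 13.06, 13.28 and 13.26 in the HFD-CO mice and 13.19, 13.18, 13.42 and 13.31 in the HFD-ED mice, with a difference of 0.09 log2 units (SE 0.063, 95% interval -0.05 to 0.23, limma adjusted p 0.704), or 0.039 without HFD-ED replicate 3.

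Among assembly factors, Ndufaf1 and Ndufaf2, both needed to build complex I, had small differences with overlap between the diets. Ndufaf1 was at 8.88, 9.05, 8.92 and 8.83 in the control mice, 9.05, 8.88, 8.89 and 8.81 in the HFD-CO mice and 8.98, 8.98, 9.11 and 9.11 in the HFD-ED mice, a difference from control of 0.13 log2 units (SE 0.059, 95% interval -0.005 to 0.26, limma adjusted p 0.506). Ndufaf2 was at 8.30, 8.25, 8.38 and 8.37 in the control mice, 8.31, 8.34, 8.43 and 8.21 in the HFD-CO mice and 8.37, 8.45, 8.48 and 8.42 in the HFD-ED mice, a difference of 0.10 log2 units (SE 0.045, 95% interval 0.0017 to 0.20, limma adjusted p 0.48). Sdhaf3, which helps to insert the iron-sulfur clusters of complex II, had the smallest p of the members in HFD-CO against control. It was at 7.68, 7.83, 7.69 and 7.80 in the control mice, 7.97, 7.86, 7.90 and 7.86 in the HFD-CO mice and 7.83, 7.87, 7.85 and 7.87 in the HFD-ED mice, where control replicates 1 and 3 were lower than every other mouse. Its difference from control was 0.10 log2 units (SE 0.035, 95% interval 0.03 to 0.18, limma adjusted p 0.381) in HFD-ED and 0.15 log2 units (SE 0.035, 95% interval 0.07 to 0.23, limma adjusted p 1.0) in HFD-CO.

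Subunits encoded on mitochondrial DNA were mixed in sign. Of 8 measured such genes 4 were higher in HFD-ED than in control (45.9% of all genes), with a mean of -0.006 for their differences. At an unadjusted p under 0.05, where 5.69% of all genes were higher and 7.55% lower, there were 0 of these 8. Per mouse, their mean deviation was 0.0066, 0.047, -0.042 and -0.054 in the control mice, 0.012, 0.068, -0.064 and 0.094 in the HFD-CO mice and -0.017, 0.072, -0.15 and 0.025 in the HFD-ED mice. HFD-ED replicate 3, the highest mouse for the nuclear genes, was the lowest for these. ND1, a core subunit of complex I, had the lowest difference, at -0.15 (SE 0.10), and ND5, another, the highest, at 0.22 (SE 0.19). CYTB, the cytochrome b of complex III, was near 0, at 0.014 (SE 0.11). The probes of ND1 and CYTB read above 13 in all mice, in the upper part of the scale, and the difference between the nuclear and mitochondrial sets was not tested.

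Other genes of the pathway that the symbol rule leaves out were counted in the same way. For comparison, 45.9% of all genes were higher in HFD-ED than in control. At an unadjusted p under 0.05, 5.69% of all genes were higher and 7.55% lower, and 10.3% of those with a mean of at least 7.5 were higher. Of 6 chain genes outside the rule, 5 were higher in HFD-ED than in control and 1 had an unadjusted p under 0.05. This was Cyc1, the cytochrome c1 of complex III, with a difference of 0.37 (SE 0.14, limma adjusted p 0.420). Atpif1, the inhibitor of ATP synthase, had the largest difference of the 6, at 0.48 (SE 0.23, limma adjusted p 0.513). Of 33 further assembly factors 15 were higher and 5 had an unadjusted p under 0.05, all higher. Of these 5, Uqcc2, a complex III assembly factor, differed by 0.19 (SE 0.043, limma adjusted p 0.252) and Cox17, a copper chaperone of complex IV, by 0.40 (SE 0.18, limma adjusted p 0.480).

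The citric acid cycle enzymes, which feed the chain, went both ways, with 6 of 12 higher, differences from -0.28 to 0.21 and a median of 0.0033. At an unadjusted p under 0.05, 1 of them was lower, Idh3b at -0.28, against 7.55% of all genes. Of 12 regulators of respiratory chain genes 4 were higher, with a median of -0.062. At an unadjusted p under 0.05, 2 regulators were higher and 2 lower, against 5.69% and 7.55% of all genes. Gabpa and Gabpb1, the subunits of GABP, had opposite signs, at 0.10 (SE 0.023) and -0.22 (SE 0.068). Esrra, a nuclear receptor that acts on respiratory genes, was at -0.21 (SE 0.084). Neither these nor any other gene of the lists passed the test, with a smallest limma adjusted p of 0.252.

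Marker lists of other cells were followed in the same mice. The 13 measured erythroid markers had a mean deviation of -0.62, -0.65, -0.060 and 0.20 in the control mice, -0.27, -0.70, 0.35 and -0.56 in the HFD-CO mice and -0.51, 0.76, 1.33 and 0.73 in the HFD-ED mice, so HFD-ED replicates 2, 3 and 4 were the highest. Of the 13, 12 were higher in HFD-ED than in control (45.9% of all genes), 5 with an unadjusted p under 0.05 (5.69% of all genes). The globin probes Hba-a1 and Hbb-bs, with means of 14.5, differed by 0.10 and -0.0046, close to the top of the scale at 14.8. The 16 cell division genes ranged from -0.079 to 0.92 in HFD-ED mice and from -0.54 to 0.045 in control mice, and the 8 neutrophil precursor markers from -0.34 to 2.04 and from -0.72 to 0.39. At an unadjusted p under 0.05, 14 cell division genes and 1 neutrophil precursor marker were higher in HFD-ED than in control. Against HFD-CO, 7 erythroid, 11 cell division and 8 neutrophil precursor genes were higher at that cut, against 6.07% of all genes. Lower than HFD-CO at that cut was 1 cell division gene, against 5.82% of all genes. B-cell and T-cell markers, in contrast, ranged from -0.37 to 0.056 in HFD-ED and from 0.013 to 0.085 in control.

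The 6 pancreatic acinar markers deviated by 5.01 in HFD-CO replicate 4 and 1.19 in HFD-CO replicate 1, and lay between -0.80 and -0.061 in the other 10 mice. HFD-CO replicate 4 was also the lowest mouse for complexes II, IV and V. Of 8 adipocyte markers 1 had a mean of at least 7.5, and the 7 red pulp macrophage markers had a mean difference of -0.15 between HFD-ED and control. The part of these other cells in the differences of the respiratory chain genes was not tested, and in whole spleen a change in cell numbers and a change in RNA per cell cannot be told apart.

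**Figure D4:**
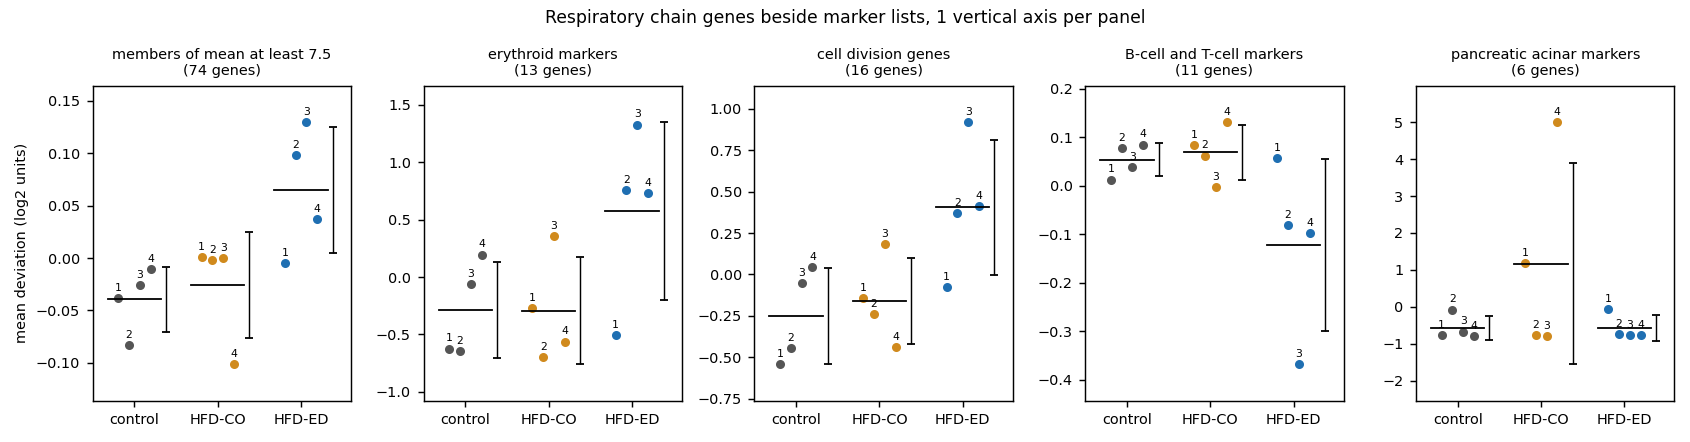
Mean deviation of each mouse from the 12-mouse mean (vertical axis, log2 units, with its own range in each panel) for the 74 brighter respiratory chain genes and for markers of erythroid cells, cell division, B and T cells, and pancreatic acinar cells, by diet. Numbered points are mice, horizontal bars are diet means and the error bars are 1 SD. HFD-ED replicates 2, 3 and 4 are the highest 3 mice for the chain genes, the erythroid markers and the cell division genes, HFD-ED replicate 3 is the lowest for B-cell and T-cell markers, and HFD-CO replicate 4 is at 5.01 for acinar markers.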

How the data were processed

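Spleen RNA of 12 mice was labelled and hybridized to Illumina MouseWG-6 v2.0 BeadChips. The authors took bead intensities from GenomeStudio, transformed them to stabilize the variance and quantile normalized them with lumiExpresso of lumi (version 2.18.0, per the labels), and deposited the resulting log2 values. The transformation compresses differences of dim probes. Quantile normalization gives each array the same distribution, so a shift of all genes cannot be seen. No depth exists for arrays, and their number limits the precision.

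The deposited log2 values were fitted for all 45281 probes and 12 arrays with limma 3.58.1 in R 4.3.3 (lmFit and eBayes, 1 coefficient per diet). Benjamini-Hochberg adjustment ran over all probes within each of the 3 comparisons, with calls at an adjusted p of 0.05. No member had an adjusted p under 0.001, the threshold of the study's methods. The study reported genes past that threshold in both comparisons with control, whereas the present fit called 0 probes there even at 0.05. The reason for this gap was not tested, so the absence of members here does not place them outside the study's list. A gene was represented by the probe with the highest mean over the 12 arrays, and 18 probes with several symbols were left out. The fit was also run on simulated arrays with independent noise per probe and a shift larger than any difference of a member. That run does not show how the fit handles differences as small as those of the members. Values of a complex are means over genes and carry no test. The correlation between arrays of 1 diet, across probes, lay between 0.971 and 0.995.

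The members and lists were chosen with earlier results of these data known. Named genes were, per complex, the 3 with the smallest p in HFD-ED against control and the brightest, then tissue forms with their partners, complex II genes, the 3 widest ranges, and the 2 smallest p of each other comparison. Equal replicate numbers in different diets gave no clear sign of paired mice: r was over 0.1 in 4 of 12 such pairs, and 3 of 12 mice were closest to their own number. With so few mice this cannot exclude a block shared by arrays of equal number. Alternatives were the replicate number as a block, a variance trend, array weights, dim probes left out, 1 probe per gene, a fit of the diets compared alone, other centring and normalization, the mean over probes, the brighter members alone, and each mouse left out in turn. Promoters came from RefSeq (GRCm38.p6).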

Additional observations from a re-analysis of the deposited data

Results flagged for a closer look

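In 4 of 129 groups of 4 mice tested (6 classes and 37 named genes in 3 diets), 1 mouse lay far from the other 3 of its diet, by the size of its gap relative to the range. Chance flags about 1 in 20 such groups, and here it was 3.10%. Complex I was at -0.104 in control replicate 2, below -0.035 to -0.023 in the other control mice. Sdhb was at 9.35 in control replicate 4, against 9.51 to 9.52 in the others. Uqcrh was at 12.85 in control replicate 1, against 12.63 to 12.65. Atp5j was at 12.15 in HFD-ED replicate 3, against 11.76 to 11.82.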

How the results depend on the processing

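No member was called in any comparison under any alternative run. The lowest adjusted p of a member over the alternatives was 0.0538 for HFD-ED against control (Ndufc1, without HFD-ED replicate 1), 0.118 for HFD-ED against HFD-CO and 0.849 for HFD-CO against control. The median difference over the members kept its sign in HFD-ED against control (0.058 to 0.11) and against HFD-CO (0.030 to 0.077), as did the complexes except complex II against HFD-CO. The counts of members higher at an unadjusted p under 0.05 moved by over 1.5 times. With a variance trend they were 11 in HFD-ED against control, 1 in HFD-CO against control and 9 in HFD-ED against HFD-CO. Leaving out each mouse in turn gave 9 to 25, 1 to 5 and 4 to 21. With the replicate block, the count in HFD-CO against control was 5, and the block changed no call, in a fit whose numbers gave no clear sign of pairing. The difference of Ndufa13 from control turned to 0.050 with cyclic loess and ranged from -0.030 to 0.029 with mice left out, that of Atp5b from -0.0082 to 0.14, and that of Atp5g2 from -0.0075 to 0.22. Without HFD-ED replicate 3 the differences from control were 0.17 for Atp5o and Atp5d, 0.16 for Uqcr11, 0.23 for Uqcrc1 and 0.18 for Cox6a1. The cause of these moves was not tested. With 4 mice per diet and small differences, single mice decided several counts, and 17 members had a mean under 7.5, where differences are compressed.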
